A study of Mus musculus with 4 samples.

Results

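Transforming growth factor beta (TGF-beta) signalling was described through 10 genes taken by symbol from the 24411 genes of the count tables: the ligand gene Tgfb1, the receptor genes Tgfbr1 and Tgfbr2, the SMAD genes Smad2, Smad3, Smad4, Smad6 and Smad7, and the co-repressor genes Ski and Skil. All 10 had reads in every library and all 10 passed the filter on low counts, as did 9992 genes in total. The cells were BV2, an immortalised mouse microglial line, and every library carried the label of a CRISPR-Cas9 knockout of PU.1, the transcription factor encoded by Spi1. There were 2 untreated libraries and 2 libraries from cells given 10 ng/ml of lipopolysaccharide (LPS), a bacterial cell wall component sensed by TLR4. The labels give the exposure as 2 h in one field and 4 h in another, which was not settled. They do not say whether the knockout line is a single clone, and wild-type cells are not analysed here, and the genotype was therefore not compared.

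TGF-beta binds a type II receptor, the product of Tgfbr2, which activates the type I receptor encoded by Tgfbr1. The type I receptor phosphorylates SMAD2 and SMAD3, which join SMAD4 and act on genes in the nucleus. SMAD6 and SMAD7 are inhibitory members of the family, and SKI and SnoN, the product of Skil, are co-repressors that bind SMAD complexes. In the brain, TGF-beta is known for keeping microglia in their resting state.

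Gene counts totalled 3256197 to 4502105 reads per library, and Spi1 itself was counted in all 4, with 743 to 958 reads. Spi1 reads show the transcript and not the edit. Values are CPM, read counts divided by library sizes that edgeR's trimmed mean of M values (TMM) had adjusted. Each mean is given with the SD of 2 libraries. On this scale Spi1 was at 161 and 164 CPM untreated and at 258 and 291 CPM after LPS. The labels name no separate cultures, so p-values measure only the spread between these libraries, which may be technical. All 10 microglial and macrophage markers were tested, with summed levels of 2894 to 2940.5 CPM untreated and 2868 to 2973 CPM after LPS. Single markers moved within that sum. Itgam, Cx3cr1 and Ptprc rose (log2 fold changes 2.20, 1.51 and 1.39), as did Aif1 and Tyrobp (1.20 and 0.53). Laptm5 (-1.40) and Csf1r (-0.21) fell. Cx3cr1 and Aif1 were scarce. Cx3cr1 had 22 and 10 reads untreated and 25 and 33 after LPS, and Aif1 had 9 and 6 against 12 and 10. All 4 neuronal and all 4 epithelial markers had 0 reads, and 6 of 7 fibroblast, 4 of 5 lymphocyte, 3 of 4 oligodendrocyte and 2 of 5 astrocyte markers did too. The 6 endothelial markers summed to 22.8 to 23.2 CPM untreated and 34.0 to 49.9 CPM after LPS, almost all of it from Kdr and Vwf, with Pecam1, Tek and Cldn5 at 0. The part of these markers in the results was not tested.

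The set split after LPS. Skil, Smad6 and Tgfbr1 rose, and Smad7, Smad4, Ski and Tgfbr2 fell, at an edgeR quasi-likelihood adjusted p below 0.05. Tgfb1, Smad2 and Smad3 did not pass the test. In bulk RNA a change in the share of cells that express a gene and a change in RNA per cell cannot be told apart. The 7 of 10 called stand beside 51.9% of all genes tested that were called in these libraries, 26.6% higher and 25.3% lower. The median log2 fold change of the 10 was -0.17, against 0.00 over all genes tested. The largest response was that of Skil at 2.25-fold, and each other called member moved by less than 2-fold. CPM values of the 2 groups did not overlap for 8 of the 10 (3 above and 5 below after LPS), against 75.1% of all genes tested, so this share is near the background.

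**Figure D1:**
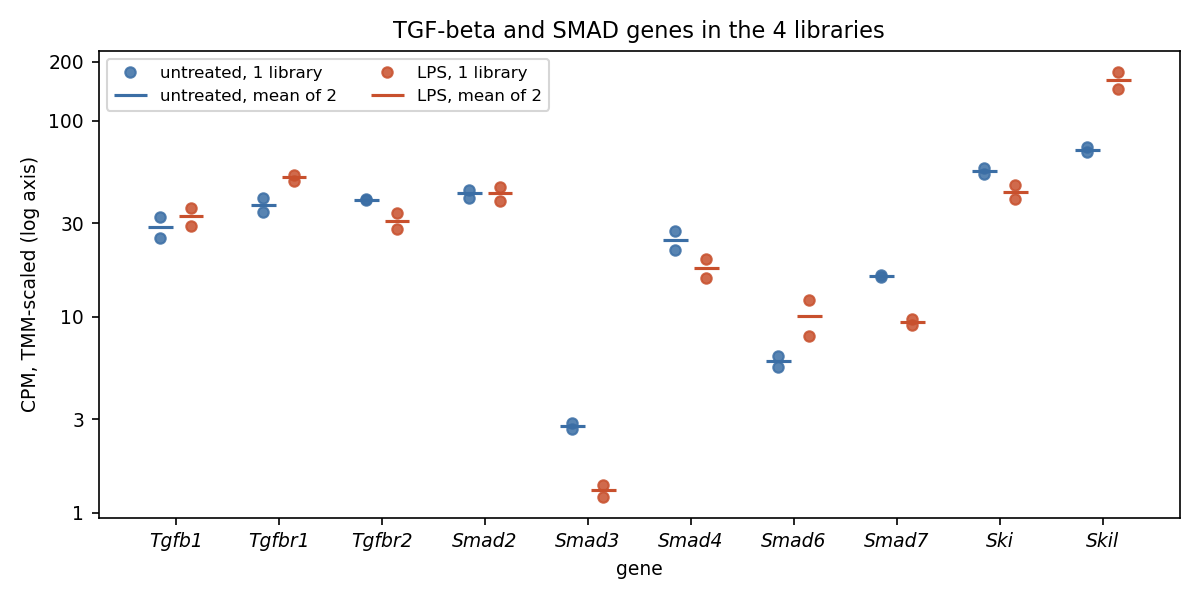
CPM of the 10 genes (log axis) in each library; points are libraries, short lines the means of 2 untreated (blue) and 2 LPS (red) libraries. Skil separates most clearly upward, from 68.8 and 73.6 to 145 and 177 CPM, while the points of Tgfb1 and Smad2 overlap.

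The calls differed in how far they held over 14 alternative settings. Several of these refit the same 4 libraries: RLE or upper quartile scaling, both other filters, unstranded counts, a replicate block, and removal of 5 abundant entries. All 7 calls held under each of those, so the tallies below do not count independent checks. Skil passed in 14 of 14, Smad7 in 12, Smad4 in 11, Tgfbr1 in 10, and Tgfbr2, Smad6 and Ski in 9 each, with the sign of each of these 7 kept in all 14. With DESeq2, where 28.9% of genes were called, 16.0% higher and 12.8% lower, 1 member passed (Skil), and 3 had an unadjusted p below 0.05. With offsets corrected for GC content, where 49.2% of genes were called (26.6% higher, 22.6% lower), 3 members passed (Skil and Smad6 higher, Smad4 lower). With library sizes left unadjusted, where 61.6% of genes were called (13.8% higher, 47.8% lower) and the all-gene median moved to -0.36, 1 member was higher and 6 lower. When 1 library was left out, the median log2 fold change of the 10 was -0.22 to -0.10. Skil then stayed between 1.02 and 1.31, and Smad6 between 0.42 and 1.03.

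**Figure D2:**
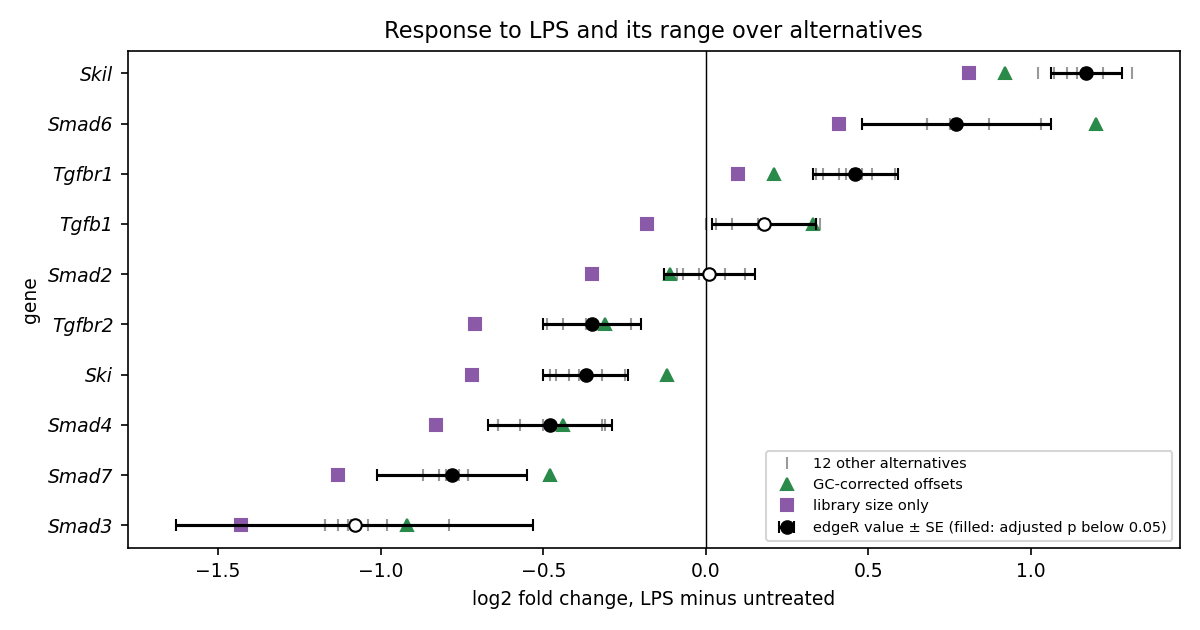
Log2 fold change of each gene, LPS minus untreated, from edgeR with its SE (circles, filled where the adjusted p is below 0.05), and the same value under 14 alternatives. Skil lies between 0.81 and 1.31 under all of them, whereas Ski nears 0 with GC correction (-0.12).

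The ligand gene Tgfb1 encodes TGF-beta1, which is secreted in a latent form. It stood at 25.2 and 32.3 CPM in the untreated and 36.0 and 29.1 CPM in the LPS libraries. These values overlap, and the log2 fold change was 0.18 (SE 0.16, edgeR adjusted p = 0.354), with an approximate 95% interval of -0.13 to 0.49. It turned to -0.18 under unadjusted library sizes. The other TGF-beta ligand genes were close to absent from the counts, with 2 reads over the 4 libraries for Tgfb2 and 0 for Tgfb3.

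The receptor genes Tgfbr1 and Tgfbr2 differed in direction. Their promoter windows, the 250 bases before the annotated start, are shown because these partners of one receptor complex moved apart, together with that of Smad6, the other called riser among the 6 members with an entry (Tgfb1, Tgfbr1, Tgfbr2, Smad3, Smad6 and Ski). The sequences are from RefSeq, build GRCm38.p6, read 5′ to 3′ along the gene, and capitals mark the word GGGCGG on either strand, the core of a GC box (CCGCCC when on the opposite strand).
Tgfbr1, chr4:47352972-47353221, plus strand: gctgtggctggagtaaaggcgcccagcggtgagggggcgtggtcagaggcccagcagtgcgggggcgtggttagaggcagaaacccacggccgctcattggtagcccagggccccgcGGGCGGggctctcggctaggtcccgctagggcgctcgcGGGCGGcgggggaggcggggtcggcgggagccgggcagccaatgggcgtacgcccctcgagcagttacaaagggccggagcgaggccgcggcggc
Tgfbr2, chr9:116175364-116175613, minus strand: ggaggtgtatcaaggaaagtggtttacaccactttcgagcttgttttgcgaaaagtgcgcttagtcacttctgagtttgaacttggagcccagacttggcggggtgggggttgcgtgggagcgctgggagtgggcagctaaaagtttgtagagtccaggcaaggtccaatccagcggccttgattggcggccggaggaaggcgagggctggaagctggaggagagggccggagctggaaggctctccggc
Smad6, chr9:64022060-64022309, minus strand: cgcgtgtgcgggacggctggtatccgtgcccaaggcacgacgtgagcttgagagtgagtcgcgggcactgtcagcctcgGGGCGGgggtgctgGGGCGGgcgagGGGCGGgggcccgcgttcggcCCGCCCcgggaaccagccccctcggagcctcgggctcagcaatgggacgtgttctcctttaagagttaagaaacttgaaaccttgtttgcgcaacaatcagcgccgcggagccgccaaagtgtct
The word GGGCGG occurred 2 times in the Tgfbr1 window, 4 times in the Smad6 window and 0 times in the Tgfbr2 window. The window of Ski, which fell, held it 5 times and overlapped annotated exon by 57 bases. Those of Tgfb1 and Smad3, which did not pass, held the word 5 and 2 times. Any link between the word and the responses was not tested. Of all 32851 windows of this length, 32.7% held GGGCGG. The SMAD words CAGACA and GTCTAGAC, the PU.1-type word GAGGAAGT, the AP-1 word TGANTCA and the NF-kB consensus had no match on either strand in these 3 windows. They occur in 17.1%, 0.167%, 2.44%, 6.75% and 7.25% of all windows. The Tgfb1 window had 1 NF-kB match. For Tgfbr1 RefSeq lists another start, whose window has CAGACA 1 time and GGGCGG 0 times. A match or its absence describes these letters only.

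Tgfbr1, the type I receptor gene, was at 40.2 and 34.1 CPM untreated and at 53.0 and 49.5 CPM after LPS. Both LPS libraries lay above both untreated ones, a 1.37-fold rise (0.46 on the log2 scale, SE 0.13, edgeR adjusted p = 0.0037). The call was lost without untreated replicate 2 (adjusted p = 0.127), with GC correction (0.178), with DESeq2 (0.108) and under unadjusted library sizes (0.562). Tgfbr2, the type II receptor gene, was at 39.2 and 39.8 CPM untreated and at 28.1 and 33.7 CPM after LPS. The LPS libraries were the lower ones and lay further apart than the untreated pair. Its log2 fold change was -0.35 (SE 0.15, edgeR adjusted p = 0.0432), close to the threshold. It was lost without untreated replicate 1 (adjusted p = 0.137), untreated replicate 2 (0.160) or LPS replicate 1 (0.264), with GC correction (0.0741) and with DESeq2 (0.304).

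The ratio of Tgfbr1 to Tgfbr2 reads does not depend on how libraries are scaled, but it is not corrected for GC content. With GC correction the log2 fold changes were 0.21 for Tgfbr1 and -0.31 for Tgfbr2. The ratio was 1.02 and 0.856 untreated and 1.89 and 1.47 after LPS, so the groups did not overlap. With 2 libraries against 2, an exact permutation test cannot give a p below 0.333, so this and the other ratios are descriptions.

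Among the receptor-regulated SMADs, Smad2 was well expressed and close to level. It had 40.5 and 44.5 CPM untreated and 38.8 and 46.1 CPM after LPS, the untreated values lying inside the wider LPS range. Its log2 fold change was 0.01 (SE 0.14, edgeR adjusted p = 0.967), with an approximate 95% interval of -0.26 to 0.28. Its sign depended on the setting, and under unadjusted library sizes it was lower (log2 fold change -0.35, adjusted p = 0.0283). Smad3, its partner, was scarce, with 14 and 13 reads untreated and 4 and 4 after LPS. In CPM it stood at 2.68 and 2.88 against 1.39 and 1.21, with the LPS libraries below. The log2 fold change was -1.08 (SE 0.55), an approximate 95% interval of -2.15 to 0.00, and the edgeR adjusted p was 0.0958. A change of this size was not resolved at 35 reads in all. It passed under unadjusted library sizes (adjusted p = 0.0187).

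Smad4, the partner shared by the TGF-beta and bone morphogenetic protein (BMP) arms, was at 22.0 and 27.4 CPM untreated and 19.8 and 15.8 CPM after LPS. Both LPS libraries were lower, by a narrow margin, and the log2 fold change was -0.48, with SE 0.19 and edgeR adjusted p = 0.0295. The call held with GC correction (adjusted p = 0.0439). It was lost without untreated replicate 2 (0.293), without LPS replicate 2 (0.245) and with DESeq2 (0.275).

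The inhibitory SMAD genes moved in opposite directions. Smad7, whose product blocks and degrades the type I receptor, was at 15.9 and 16.4 CPM untreated and 9.70 and 9.11 CPM after LPS. The 2 pairs were tight and well apart, and the log2 fold change was -0.78, with SE 0.23 and edgeR adjusted p = 0.00417. It passed without any single library (adjusted p 0.0106 to 0.0311), but not with GC correction (log2 fold change -0.48, adjusted p = 0.0803) or DESeq2 (0.130). Smad6, which acts chiefly on the BMP arm, had 33 and 25 reads untreated and 23 and 40 after LPS. Scaled, these were 6.31 and 5.53 CPM against 7.97 and 12.1 CPM. LPS replicate 2 was well above replicate 1, and both were above the untreated pair. The rise was 1.71-fold (0.77 on the log2 scale, SE 0.29, edgeR adjusted p = 0.0219). It was larger with GC correction (1.20, adjusted p = 0.000482). It fell to 0.42 without LPS replicate 2 (adjusted p = 0.376), and the call was also lost without untreated replicate 1 (0.0530) or replicate 2 (0.121), with DESeq2 (0.271) and under unadjusted library sizes (0.208). The ratio of Smad6 to Smad7 reads was 0.398 and 0.338 untreated and 0.821 and 1.33 after LPS.

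The co-repressor genes also split. Skil had 385 and 311 reads untreated and 510 and 476 after LPS, the most of any member. Its level went from 73.6 and 68.8 CPM to 177 and 145 CPM, the lower LPS library being far above the higher untreated one. The mean rose from 71.2 ± 3.43 to 161 ± 22.8 CPM (SD, n = 2 each), 2.25-fold (1.17 on the log2 scale, SE 0.11, edgeR adjusted p = 4.2e-13). Its log2 fold change was 0.92 with GC correction (adjusted p = 9.18e-11) and 0.81 under unadjusted library sizes (adjusted p = 3.86e-11). Ski, the founding member of the family, went the other way, from 53.7 and 57.5 CPM to 46.8 and 39.8 CPM. The LPS libraries lay below both untreated ones, and the log2 fold change was -0.37, with SE 0.13 and edgeR adjusted p = 0.0172. This call was lost with GC correction (log2 fold change -0.12, adjusted p = 0.451) and with DESeq2 (0.195). It was lost too without untreated replicate 1 (just past the threshold), untreated replicate 2 (0.140) or LPS replicate 2 (0.185). Skil reads were 1.37 and 1.20 times Ski reads in the untreated libraries and 3.78 and 3.63 times after LPS.

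Responses over all genes trended with GC content. Among 5 bins of equal size, the median log2 fold change was 0.28 in the bin with the lowest GC and -0.32 in the bin with the highest. Skil and Tgfbr1, at 41.0% GC each, belonged to the lowest bin. Ski (55.6%), Smad7 (56.9%) and Smad6 (60.8%) belonged to the highest. Ski, at -0.37, lay close to the median of its bin, and Smad6, at 0.77, lay above it. Whether the trend is technical was not tested.

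**Figure D3:**
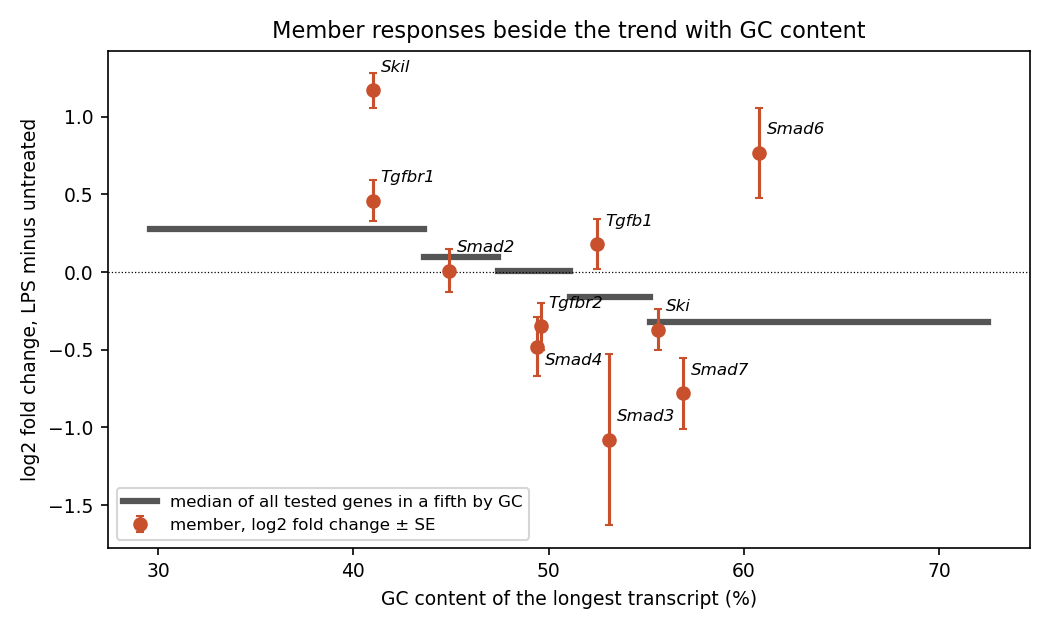
Log2 fold change (LPS minus untreated, ± SE) of the 10 genes against the GC content of the longest transcript, with the median of all tested genes in each of 5 GC bins (grey bars). Ski sits near the bar of its bin (-0.32), and Skil and Smad6 sit above theirs.

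Levels can be compared between genes only per length, here CPM per kilobase of annotated exon. In untreated cells Tgfb1 was the highest at 13.2 (libraries 11.6 and 14.8), then Skil at 10.6 and Ski at 10.1, whose libraries overlapped. Smad4 at 6.91 overlapped with Tgfbr1 at 5.79, and Smad2 at 4.95 with Tgfbr2 at 4.83. Smad7 at 3.68, Smad6 at 1.99 and Smad3 at 0.545 followed without overlap. After LPS, Skil at 23.9 CPM per kilobase (26.3 and 21.5) stood above Tgfb1 at 15.0. Tgfbr1 at 7.99 and Ski at 7.84 overlapped, as did Smad4 at 4.97 and Smad2 at 4.94, and Tgfbr2 at 3.77 and Smad6 at 3.39. Smad7 at 2.15 was then below Smad6, and Smad3 at 0.255 was last. Smad2 reads were 15.1 and 15.5 times Smad3 reads in the untreated libraries and 28.0 and 38.0 times after LPS.

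**Figure D4:**
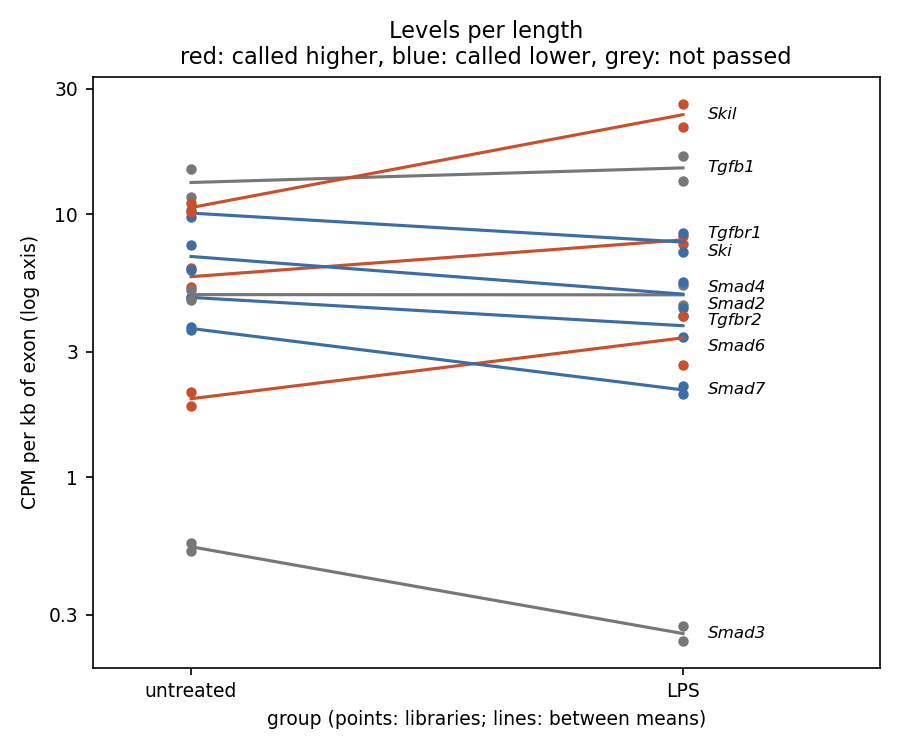
CPM per kilobase of exon (log axis) for each gene, untreated and LPS; points are libraries and lines join the means. Skil passes Tgfb1 to become the highest (23.9 after LPS), the lines of Smad6 and Smad7 cross, and Smad3 stays the lowest at 0.545 and 0.255.

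The genes around the 10 were read from 7 lists of the wider pathway, with the members left out of every count. Each count is to be read against all genes tested, of which edgeR called 26.6% higher and 25.3% lower, or 13.8% and 47.8% under unadjusted library sizes, where the all-gene median was -0.36. Of 25 other genes of ligands, latency and activation, 18 had under 10 reads and 5 could be tested, so the counts cover the expressed few. Of these, 4 rose and 1 fell. Furin, the protease that cuts the TGF-beta precursor, rose 1.70-fold from 67.4 ± 0.196 to 115 ± 14.6 CPM (SD, n = 2). The integrin genes Itgb1 and Itgav, whose products help to free latent TGF-beta, rose 1.86-fold and 1.52-fold. Itgb5, another integrin gene of this activation list, fell (log2 fold change -0.49), but not with GC correction (edgeR adjusted p = 0.0926). The integrin genes Itgb6 and Itgb8 of the same list had 0 reads. Thbs1, too scarce to be tested, had 6 and 15 reads untreated against 3 and 1 after LPS. These last genes were named after their values were seen. Nrros, which tethers latent TGF-beta1 on microglia, was the remaining riser and was named after its value was seen (log2 fold change 0.28). The list had 3 risers under upper quartile scaling, unadjusted library sizes or DESeq2, and Nrros was not among them.

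Of 9 tested genes among 14 other receptors and co-receptors, 2 rose and 1 fell (33.3% called, against 51.9% of all genes), or 1 and 4 under unadjusted library sizes. Bmpr1a, a BMP type I receptor gene, rose from 73.2 ± 2.5 to 143 ± 3.5 CPM, 1.95-fold (SE 0.10 on the log2 scale, edgeR adjusted p = 4.4e-11). Neo1, which encodes the receptor neogenin, fell from 224 ± 0.656 to 113 ± 4.81 CPM (log2 fold change -0.99). Cd109, a co-receptor that dampens TGF-beta signalling, rose 1.85-fold. It did not pass under DESeq2 (adjusted p = 0.0884) or under unadjusted library sizes (0.0536). Tgfbr3, the betaglycan gene, had 0 reads.

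The list of other SMADs, anchors and nuclear partners mostly went down where its genes were called, at a share near that of all genes. Of 14 tested genes among other SMADs, anchors and nuclear partners, 6 fell and 1 rose, 50% called against 51.9% of all genes. Under unadjusted library sizes, which called 47.8% of all genes lower, 12 fell and 1 rose. DESeq2 called 4 lower and 2 higher of 15 tested, against 12.8% and 16.0% of all genes. The median log2 fold change was -0.38, against 0.00 over all genes. It was -0.57 without LPS replicate 1 and -0.18 without LPS replicate 2. Zeb2, a SMAD-binding repressor, was the riser, from 227 ± 8.75 to 592 ± 23.8 CPM, 2.61-fold. Hgs, an endosomal protein that helps SMADs to reach the receptor, fell from 46.4 ± 0.604 to 23.9 ± 1.54 CPM (log2 fold change -0.96). The coactivator gene Crebbp (-0.69) and Runx3 (-1.20), a SMAD partner, fell too. The BMP-regulated SMAD genes Smad1 and Smad5 did not pass, with log2 fold changes of -0.24 and -0.28, and Smad9 had 0 reads.

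Of 18 tested ubiquitin ligases and other regulators, 3 rose and 3 fell (33.3% called, against 51.9% of all genes). Under unadjusted library sizes edgeR called 0 higher (0 also at an unadjusted p below 0.05) and 9 lower, against 13.8% and 47.8% of all genes. DESeq2 called 1 higher and 2 lower of 19 tested, against 16.0% and 12.8% of all genes. The median log2 fold change of the list was 0.07, and 0.02 without untreated replicate 2. The ligase genes Wwp1 and Wwp2 fell, with log2 fold changes of -1.07 and -0.55. Ywhae, a 14-3-3 protein gene, and the deubiquitinase gene Usp9x rose 1.22-fold and 1.31-fold. Neither passed with GC correction (adjusted p = 0.165 and 0.459) or under unadjusted library sizes, under which Ywhae turned to -0.07. Both calls were also lost without untreated replicate 2 (adjusted p = 0.121 and 0.0923), and that of Usp9x without LPS replicate 1 (0.215) and with DESeq2 (0.132). Smurf1 and Smurf2, ligases that SMAD7 brings to the receptor, did not pass (log2 fold changes 0.21 and 0.28). Of the 11 non-SMAD genes, 2 fell (18.2% called, against 51.9% of all genes), or 8 under unadjusted library sizes, which called 47.8% of all genes lower. Mapk14, which encodes p38 alpha, fell from 116 ± 2.14 to 79.4 ± 5.36 CPM (log2 fold change -0.55). Tab1, an activator of the kinase TAK1, fell by 0.58 on the log2 scale, without passing under DESeq2 (adjusted p = 0.103) or GC correction (0.248). Map3k7, the TAK1 gene, did not pass (-0.06).

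Of 22 common TGF-beta and BMP target genes other than the members, 7 had under 10 reads and 13 could be tested. Among these 13, 6 rose and 3 fell (69.2% called, against 51.9% of all genes). Many of them also answer to other signals. The stress factor gene Atf3 rose from 58.8 ± 3.10 to 336 ± 9.75 CPM, 5.71-fold (2.51 on the log2 scale, SE 0.10, edgeR adjusted p = 3.37e-27). Cdkn1a, which encodes the p21 brake on cell division, rose 12.2-fold, and the AP-1 gene Junb 2.46-fold. Id3, a BMP-responsive gene named after its value was seen, fell (-0.66), which was not the largest fall in the list. Id2, of the same list, did not pass (0.18, with both LPS libraries above). Id1 was too scarce to be tested, with mean levels of 1.60 CPM untreated and 3.47 CPM after LPS. Tgfbi and Pmepa1, targets used as readouts in other cells, had 0 reads.

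Of 23 microglial genes linked to TGF-beta, 7 had under 10 reads and 15 could be tested, so the counts leave out the scarce ones. Of the 15 tested, 4 rose and 7 fell, 73.3% called against 51.9% of all genes. Under unadjusted library sizes 2 rose and 8 fell, near the 47.8% of all genes called lower there. DESeq2 called 3 higher and 3 lower of 20 tested, against 16.0% and 12.8% of all genes. The median log2 fold change of the 15 was -0.21, with 0.00 under GC correction and -0.19 without untreated replicate 1. Tmem119, a microglial surface marker, fell from 19.1 ± 4.28 to 5.46 ± 0.863 CPM (log2 fold change -1.78). The level of Mertk, the gene of a receptor for dying cells, dropped from 18.9 ± 0.522 to 5.94 ± 2.39 CPM (-1.70). Rhob, a small GTPase gene, rose 1.95-fold. Sall1, a defining microglial transcription factor gene, had 0 reads.

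**Figure D5:**
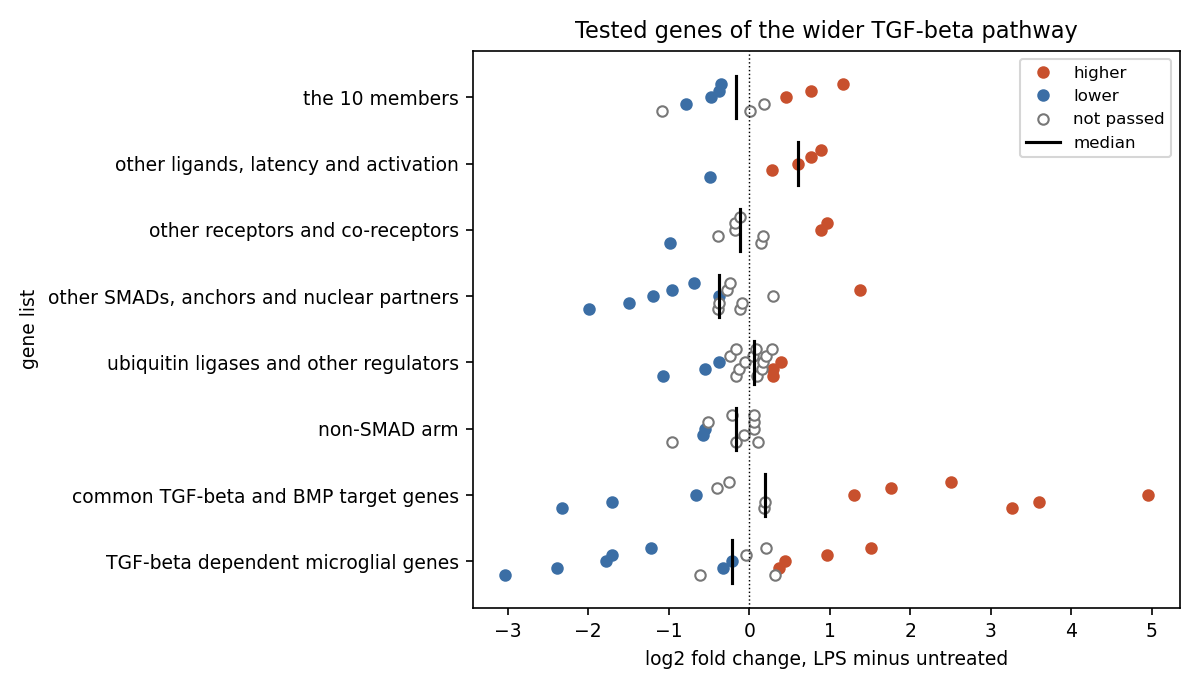
Log2 fold change (LPS minus untreated) of each tested gene in the 10 members and the 7 wider lists; red points were called higher, blue lower, open ones did not pass, and bars are medians. The members reach from -1.08 to 1.17, while several target genes lie farther from 0.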

How the data were processed

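Strand-specific libraries of ribosome-depleted total RNA were made from 4 samples, per the labels' protocols. The authors deposited raw read counts per gene for each library, in the layout of STAR's gene counts, with no normalisation or pooling. STAR 2.5.1, Trimmomatic 0.33, CASAVA 1.8.2 and DESeq2 are listed, with no role, per the submitters' processing notes, which also list hg19, a human build, although the symbols are mouse. The annotation was not given in the sources used here. Human mesenchymal stem cells appear in the extraction protocol. The reverse-strand count (column 4) was used, since it held 78.7 to 95.3 times the forward-strand count. The members had 29 forward-strand against 5620 reverse-strand reads. Lines that name no gene stayed out. Reads in no feature made up 53% and 51.8% of uniquely placed reads untreated and 59.1% and 57.4% after LPS. The TMM factors were 1.16 and 1.1 untreated and 0.888 and 0.88 after LPS. These library properties thus differed by group, and their part in the results was not tested.

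All genes were fitted with edgeR 4.0.16 in R 4.3.3 (TMM, expression filter, robust quasi-likelihood test, two-sided, treatment as the only term, Benjamini-Hochberg adjustment over 9992 genes, threshold 0.05). The SE was obtained from F and the log2 fold change, and 95% intervals are 1.96 SE, both approximate. GC content and exon length came from GENCODE vM21 by symbol (99.7% of tested genes matched). Of 14 alternatives, DESeq2 1.42.0 was the only other tool. All 139 wider-list symbols matched, 1 of them a duplicate under an older name. Besides the members, the text names at most 4 changed genes of each list, those with the smallest p, and others after their values were seen. Results of some of these genes are not reported here. The members and lists were chosen with earlier results of these data known. Replicates differed beyond sampling noise (chi-square of 1.52 untreated and 2.44 LPS, each per degree of freedom). No coordinates of the counts are given because of the conflict over the build.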

Additional observations from a re-analysis of the deposited data

How the results depend on the processing

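With 2 libraries per group the calls of single members rest on few degrees of freedom, and leaving out a library makes its group a single sample assumed to vary like the rest. Over all genes 5186 changed. DESeq2 gave 3165 (1760 higher, 1405 lower), and unadjusted library sizes gave 1379 higher and 4778 lower. Of the members, DESeq2 called 1, with 1 higher and 0 lower (1 lower at an unadjusted p below 0.05), where edgeR called 7. GC correction called 3, with 1 lower, and unadjusted library sizes called 1 higher. Leaving out 1 library gave 2 to 6 members called, 1 to 3 higher and 1 to 3 lower, without untreated replicate 2 the fewest. Their median log2 fold change of -0.17 became -0.27 with upper quartile scaling, -0.53 with unadjusted library sizes, -0.12 with GC correction and -0.22 to -0.10 when 1 library was left out. Upper quartile scaling moved the median of all genes to -0.10 and unadjusted library sizes to -0.36.

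Smad2, at 0.01, turned to -0.09 with upper quartile scaling, -0.35 with unadjusted library sizes, -0.02 without a filter and -0.11 with GC correction. It was below 0 but rounded to 0.00 with DESeq2, the CPM filter and the replicate block, and was -0.13 to 0.12 when 1 library was left out. Tgfb1 turned to -0.18 with unadjusted library sizes. List medians changed sign for target genes (-0.16, unadjusted library sizes), ligands and activation (-0.11 with DESeq2 and -0.13 without a filter, which add scarce genes), regulators (-0.03 upper quartile, -0.29 unadjusted library sizes, -0.05 GC correction) and other receptors (-0.27 to 0.05 when 1 library was left out), and reached 0.00 for microglial genes with GC correction. The causes were not tested. With the replicate number as a block, 5171 genes changed and the same 7 members were called. The numbers do not pair the samples by the labels, and same-numbered libraries did not deviate together (correlation across genes -0.0435). The results with the RLE scaling, both other filters, unstranded counts and without Lars2 and the structural RNA entries Rn45s, Mir6236, Rmrp and Rpph1 kept the same 7 member calls.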

Other observations

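Some scarce pathway genes could not be tested, and their reads are given as values chosen after they were seen. P2ry12, a microglial purinergic receptor gene, had 12 and 7 untreated reads against 1 and 0 after LPS. Eng, the endoglin co-receptor gene, had 9 and 16 against 3 and 4. Zeb1, the paralogue of Zeb2, had 1 and 3 against 13 and 7. Id1, a BMP target gene, had 11 and 5 against 13 and 8. Acvr2b, an activin receptor gene, had 22 and 7 against 2 and 5.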
